A study of Mus musculus with 18 samples.

Results

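The clustered protocadherin genes were described in the cerebellum of mice that lack *Gtpbp1* or *Gtpbp2*. They were found by symbol, as the genes named *Pcdha* or *Pcdhac*, *Pcdhb*, and *Pcdhga*, *Pcdhgb* or *Pcdhgc* followed by a number. The rule found 58 gene IDs with 57 symbols among the 54752 genes of the RNA files, since the symbol *Pcdha11* stands on ENSMUSG00000007440 and on ENSMUSG00000102206. There were 14 genes in the alpha cluster, 22 in the beta cluster and 22 in the gamma cluster, and all 58 were also among the 22523 genes of the footprint files.

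RNA sequencing and ribosome profiling, which sequences the mRNA stretches covered by ribosomes (footprints), were done on the cerebellum at P21. The groups were wild type C57BL/6J (B6J), B6J.*Gtpbp1*-/- and B6J-*Gtpbp2*-/-, each with 3 mice per assay and thus 18 libraries in all. GTPBP1 and GTPBP2 are translational GTPases, and the comparison with B6J asks how RNA levels and ribosome occupancy differ without each of them. Both sexes were used. All 3 groups carry the B6J mutation in *n-Tr20*, a nuclear tRNA-Arg-UCU gene. The *Gtpbp1* line is congenic on B6J. Its allele lacks exon 4 and some of exon 3, where a PGK-Neo cassette was put in. The *Gtpbp2* allele is the nmf205 point mutation.

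Clustered protocadherins are cadherin-like adhesion proteins of the neuronal surface that bind the same isoform on a facing membrane, and they act in self-recognition and self-avoidance of neurites, including the dendrites of Purkinje cells. Each alternate isoform is read from its own promoter, chosen stochastically in single neurons with CTCF and cohesin, whereas most C-type isoforms are expressed more constitutively. In the alpha and gamma clusters each variable exon is spliced to shared constant exons, and the beta genes have no constant exons.

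The RNA libraries held between 37794598 and 52114400 counts and the footprint libraries between 3630823 and 10442573. Levels of different genes were compared in TPM, which scales transcript counts by length and library size, and genotypes in CPM, counts scaled by library size with TMM normalization. The labels put all RNA libraries in batch 1 and all footprint libraries in batch 2. For *Gtpbp1* (ENSMUSG00000042535), RNA was 70.7, 77.6 and 66.5 CPM in the B6J libraries, 44.2, 41.7 and 43.8 in those of B6J.*Gtpbp1*-/- and 58.8, 72.3 and 65.8 in those of B6J-*Gtpbp2*-/- mice. Its footprints were 73.9, 116 and 85.6 CPM in the B6J libraries, 31.7, 25.4 and 36.1 in those of B6J.*Gtpbp1*-/- and 79.3, 66.2 and 61.8 in those of B6J-*Gtpbp2*-/- mice. In CPM all B6J.*Gtpbp1*-/- libraries were the lowest in both assays, with log2 fold changes against B6J of -0.73 ± 0.08 (SE, adjusted p 5.94e-05) for RNA and -1.57 ± 0.23 (adjusted p 0.00676) for footprints. In TPM the RNA overlapped, with 43.5, 38.4 and 40.4 in B6J against 34.5, 35.1 and 41.1.

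For *Gtpbp2* (ENSMUSG00000023952), RNA was 85.6, 73.8 and 87.8 CPM in the B6J libraries, 109, 101 and 104 in those of B6J.*Gtpbp1*-/- and 65.6, 75.5 and 72.9 in those of B6J-*Gtpbp2*-/- mice. Its footprints were 44.9, 36.0 and 38.8 CPM in the B6J libraries, 35.9, 43.1 and 59.2 in those of B6J.*Gtpbp1*-/- and 28.9, 26.2 and 7.51 in those of B6J-*Gtpbp2*-/- mice. The B6J-*Gtpbp2*-/- footprints were the lowest 3 of the 9. In CPM the RNA of B6J-*Gtpbp2*-/- mice overlapped B6J, and that of B6J.*Gtpbp1*-/- mice lay above both. In TPM, *Gtpbp2* RNA of B6J-*Gtpbp2*-/- mice was above B6J without overlap, with 127, 145 and 151 against 114, 91.7 and 99.0, so its direction depended on the scale. Against B6J the log2 fold change in B6J-*Gtpbp2*-/- mice was -0.22 ± 0.09 (adjusted p 0.190) for RNA and -0.97 ± 0.44 (adjusted p 0.321) for footprints, neither past the threshold of 0.05. In B6J.*Gtpbp1*-/- mice *Gtpbp2* RNA rose by a log2 fold change of 0.34 ± 0.08 (adjusted p 0.0154). Counts of the Y-linked gene *Ddx3y* were between 4664 and 6574 in RNA libraries 1 and 2 of B6J.*Gtpbp1*-/- and 2 of B6J and at most 26 in the other 6. In footprints they were between 330.0 and 835 in library 1 of B6J.*Gtpbp1*-/- and libraries 1 and 2 of B6J, and at most 25 elsewhere. Thus the RNA and footprint libraries of the same number were not all from the same mouse, and the numbers were not used to pair them.

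The tissue was checked against marker genes of its cell types, and in no list did a marker have a mean under 0.1 TPM. The 8 granule cell markers summed to 3549, 3603 and 3637 TPM in the B6J libraries, 2419.6, 2353 and 2749.98 in those of B6J.*Gtpbp1*-/- and 2527, 2718 and 2339 in those of B6J-*Gtpbp2*-/- mice. Their sum was lower in every library of both mutants than in every B6J library, *Cbln1* was the most abundant with a mean of 621 TPM, and 6 and 5 of the 8 were lower by the test described below. By that test the shares over all genes were 5.9% higher and 7.93% lower for B6J.*Gtpbp1*-/- and 3.61% and 5.02% for the B6J-*Gtpbp2*-/- group, and they stand beside this and the following marker counts. Summed TPM of the 5 microglia markers was 55.2, 56.2 and 60.3 TPM in the B6J libraries, 133, 115 and 119 in those of B6J.*Gtpbp1*-/- and 118, 118 and 124 in those of B6J-*Gtpbp2*-/- mice. The 4 endothelial markers summed to 64.0, 62.4 and 64.7 TPM in the B6J libraries, 91.9, 104 and 98.4 in those of B6J.*Gtpbp1*-/- and 88.2, 116 and 122 in those of B6J-*Gtpbp2*-/- mice. Both sums were higher in every mutant library than in B6J. The most abundant were *C1qa* (mean 40.3 TPM) and *Cldn5* (mean 47.2 TPM), and 3 of the 5 microglia and 2 of the 4 endothelial markers were higher in each mutant.

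The 7 oligodendrocyte lineage markers, led by *Mbp* at a mean of 3981 TPM, summed to 8893, 7658 and 8861 TPM in the B6J libraries, 7193, 7279 and 6229 in those of B6J.*Gtpbp1*-/- and 10515, 7905 and 8499.9 in those of B6J-*Gtpbp2*-/- mice. This sum was lower than B6J in B6J.*Gtpbp1*-/- mice, where 5 of 7 passed the test as lower, and overlapped B6J in B6J-*Gtpbp2*-/- mice, where 1 of 7 passed as higher. Purkinje cell markers (8, led by *Pcp2* at a mean of 1443 TPM) summed to between 4037 and 5927 TPM, and 1 and 3 of them were lower in B6J.*Gtpbp1*-/- and B6J-*Gtpbp2*-/- mice. For inhibitory interneurons and Golgi cells (6 markers, *Gad1* at a mean of 392 TPM) the sums were between 522 and 705 TPM, with 3 lower in each mutant. Astrocyte and Bergmann glia markers (7, *Slc1a3* at a mean of 822 TPM) summed to between 1664 and 1978 TPM, with 1 higher and 3 lower in each mutant. The sums of these 3 lists overlapped between genotypes. Choroid plexus markers (4, *Ttr* at a mean of 1846 TPM) varied between libraries of the same genotype, from 448 to 3319 TPM in B6J and from 110.2 to 2242 TPM in B6J-*Gtpbp2*-/- mice, and overlapped between genotypes. The 6 markers of meninges, bone and muscle (*Dcn* at a mean of 43.5 TPM) summed to between 71.4 and 117 TPM and overlapped too. The 5 forebrain markers (*Neurod6* at a mean of 8.80 TPM) summed to 12.6, 11.2 and 12.1 TPM in the B6J libraries, 14.3, 14.1 and 17.2 in those of B6J.*Gtpbp1*-/- and 12.8, 15.6 and 15.4 in those of B6J-*Gtpbp2*-/- mice. This low sum was higher in every mutant library than in B6J, and edgeR called 0 of its genes in each mutant, with 0 and 1 at an unadjusted p under 0.05 and 0 and 0 by DESeq2. In bulk tissue, fewer cells of a type and less RNA per cell cannot be told apart, and the part of these marker differences in the values given for the protocadherins was not tested.

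All 58 genes lay on the plus strand of chromosome 18 of GRCm38. The alpha cluster spanned 36930184 to 37187661, the beta cluster 37264938 to 37524479 and the gamma cluster 37661793 to 37841873. The whole span also held 27 other annotated genes. By the annotation, nearly all alpha genes shared 456 coding bases and nearly all gamma genes 372, and the beta genes shared none. Coding bases that belonged to 1 gene alone made up a median of 83.8% in the alpha and 86.7% in the gamma cluster and all those of the beta genes, so that footprints and RNA fragments from the constant exons cannot be assigned to a single gene. *Pcdha4* had 0% private coding bases, because the readthrough gene *Gm42416* holds all those outside the constant exons. The AGA codon, which tRNA-Arg-UCU reads, occurred at a median of 8.97 per 1000 codons in the alpha, 10.2 in the beta and 9.10 in the gamma cluster. For the 5 C-type genes the median was 5.96, with a range from 5.30 to 12.4. Among these, *Pcdhac1* (12.4) and *Pcdhgc4* (10.6) stood above the others. For 20826 other protein-coding genes the median was 11.2.

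Levels in B6J RNA differed widely between members. *Pcdhgc3*, a C-type gene of the gamma cluster, had 130.3 ± 23.5 TPM (mean ± SD, n = 3), followed by the C-type genes *Pcdhac2* with 30.9 ± 4.72 TPM and *Pcdhgc4* with 25.9 ± 19.1 TPM, and the last pair did not differ beyond their spread. Next came *Pcdhga11* with 15.4 ± 3.13 TPM and *Pcdhga7* with 11.7 ± 1.90 TPM. Highest in the beta cluster were *Pcdhb20* with 9.96 ± 0.471 TPM and *Pcdhb17* with 9.94 ± 0.943 TPM, which did not differ beyond their spread. The lowest were *Pcdha1* with 1.30 ± 0.291 TPM, *Pcdha8* with 0.944 ± 0.760 TPM and *Pcdhb1* with 0.0963 ± 0.034 TPM. In each genotype 56 of the 58 had a mean of at least 1 TPM. The median level of the 58 was 4.64 TPM in B6J, 5.61 TPM for B6J.*Gtpbp1*-/- and 5.51 TPM for the B6J-*Gtpbp2*-/- group, beside 4.59, 5.58 and 5.52 TPM over all genes tested. The median coefficient of variation between mice of a genotype was 17.7% in B6J, 13.7% for B6J.*Gtpbp1*-/- and 11.1% for the B6J-*Gtpbp2*-/- group, beside 21.7%, 16.5% and 17.2% over all genes tested.

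**Figure D1:**
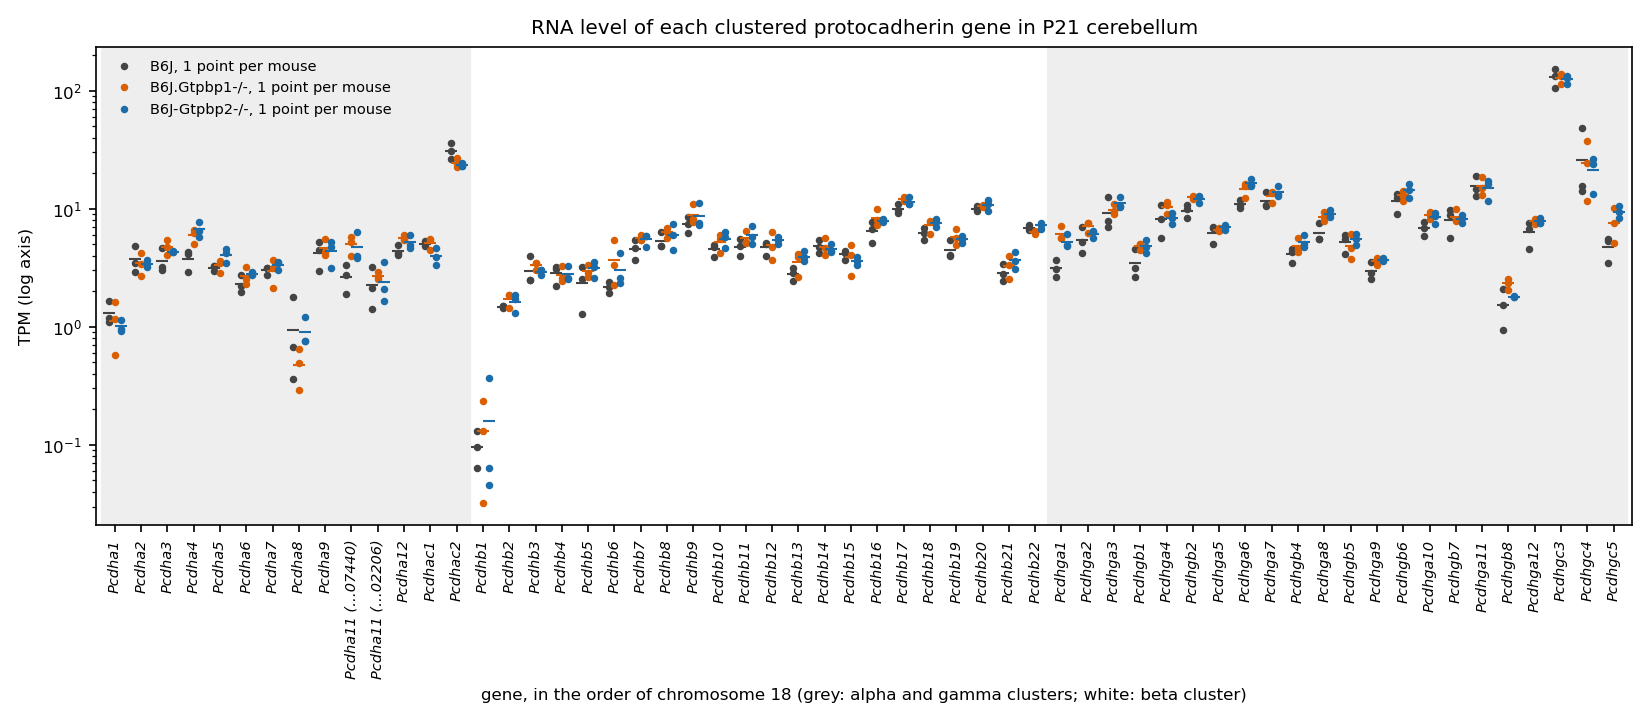
RNA level of each clustered protocadherin gene in TPM (log axis) against its order along chromosome 18, with a dot for each mouse and a dash for each genotype mean. *Pcdhgc3* stands highest, with a mean of 130.3 TPM in B6J, and *Pcdhb1* lowest, with a mean of 0.0963 TPM.

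Summed over the 58 genes, RNA was 464, 502 and 443 TPM in the B6J libraries, 538, 467 and 531 in those of B6J.*Gtpbp1*-/- and 519, 524 and 478 in those of B6J-*Gtpbp2*-/- mice. In counts the sum was 1290.0, 1420.3 and 1187 CPM in the B6J libraries, 1324, 1147 and 1310 in those of B6J.*Gtpbp1*-/- and 1292, 1275 and 1203 in those of B6J-*Gtpbp2*-/- mice. The genotypes overlapped on both scales. The gamma cluster held 63.1%, the beta cluster 21.7% and the alpha cluster 15.2% of this TPM in B6J, against 63.1%, 22.8% and 14.2% for B6J.*Gtpbp1*-/- and 63.0%, 23.0% and 13.9% for the B6J-*Gtpbp2*-/- group. Cluster sums overlapped between B6J and B6J.*Gtpbp1*-/- mice for all 3 clusters, in TPM and in CPM. In CPM the alpha sum was below B6J in every B6J-*Gtpbp2*-/- library, with 215, 229 and 204 CPM in B6J against 184, 193 and 188 CPM, whereas the beta and gamma sums overlapped. In TPM the alpha and gamma sums of that mutant overlapped B6J and the beta sum was above it in every library, with 122, 119 and 109.7 against 96.2, 107 and 102. The outcome thus depended on the scale. These sums were not tested.

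Members were then compared as C-type and alternate isoforms. The 5 C-type genes made up 40.7, 42.5 and 42.5 percent of the member TPM in the B6J libraries, 39.3, 37.5 and 34.3 in those of B6J.*Gtpbp1*-/- and 37.3, 36.6 and 34.1 in those of B6J-*Gtpbp2*-/- mice. Every mutant library was below every B6J library in this share. These shares and the C-type sums include the shorter coding transcript of *Pcdhgc4*, whose estimate was unstable. It was 0, 0 and 36.1 TPM in the B6J libraries, 24.4, 13.3 and 0 in those of B6J.*Gtpbp1*-/- and 5.73, 14.3 and 0 in those of B6J-*Gtpbp2*-/- mice. The shares were not compared without it. On the CPM scale the C-type sum was below B6J in B6J-*Gtpbp2*-/- mice by little, with 522 CPM in library 1 against 524 CPM in B6J library 3. It overlapped in B6J.*Gtpbp1*-/- mice, and on the TPM scale it overlapped in both mutants. The 12 alternate alpha genes summed to 35.9, 33.7 and 36.3 TPM in the B6J libraries, 41.1, 39.8 and 47.1 in those of B6J.*Gtpbp1*-/- and 42.0, 44.2 and 43.3 in those of B6J-*Gtpbp2*-/- mice. Here every mutant library was above B6J in TPM. Of the other alternate genes, the gamma B sum was above B6J in TPM in both mutants but overlapped with protein-coding transcripts alone, and the gamma A and beta sums were above it in B6J-*Gtpbp2*-/- mice alone. In CPM all 3 of these sums overlapped B6J in both mutants. For the alternate alpha genes in CPM, where the sum was 98.6, 94.1 and 102 in B6J, it was 104, 99.6 and 118 for B6J.*Gtpbp1*-/-, which overlapped, and 105, 108 and 110.1 for the B6J-*Gtpbp2*-/- group, which did not. With TPM in place of TMM-normalized counts the median log2 fold change over all genes was shifted by 0.13 for B6J.*Gtpbp1*-/- and 0.12 for the B6J-*Gtpbp2*-/- group, and the TPM differences include that shift.

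In the alpha cluster, the C-type gene *Pcdhac2* (ENSMUSG00000102697), which is the last variable exon before the constant exons, had the highest level. *Pcdhac2* RNA was 102, 119 and 88.1 CPM in the B6J libraries, 68.6, 72.5 and 80.5 in those of B6J.*Gtpbp1*-/- and 69.0, 73.2 and 69.5 in those of B6J-*Gtpbp2*-/- mice. In CPM all 6 mutant libraries were below all 3 B6J libraries. In TPM those of B6J-*Gtpbp2*-/- mice were below too, and B6J.*Gtpbp1*-/- mice overlapped, with 22.5, 24.1 and 26.9 against 30.8, 35.6 and 26.2. *Pcdhac2* RNA fell in B6J.*Gtpbp1*-/- mice, from 103 ± 15.6 to 73.9 ± 6.06 CPM (mean ± SD, n = 3), with a log2 fold change of -0.49 ± 0.10 (SE) and an adjusted p of 0.00724 (edgeR, quasi-likelihood test, adjusted over all genes tested by the Benjamini-Hochberg method). It fell in B6J-*Gtpbp2*-/- mice to 70.6 ± 2.28 CPM, with a log2 fold change of -0.55 ± 0.10 and an adjusted p of 0.00713. Values at or below 0.05 were called. Between the mutants the log2 fold change was 0.07 (adjusted p 1.00). Without each single library in turn both calls held, with adjusted p between 0.000739 and 0.0419 for B6J.*Gtpbp1*-/- and between 0.00215 and 0.0412 for the B6J-*Gtpbp2*-/- group. Among 11 alternative settings the adjusted p ranged from 1.45e-06 to 0.183 and from 3.67e-06 to 0.136, and 10 of 11 kept the call in each mutant. It ended in both by limma on log2(TPM + 0.5), with log2 fold changes of -0.32 (adjusted p 0.183) and -0.38 (adjusted p 0.136). Of the alpha TPM, *Pcdhac2* made up 42.9, 47.7 and 38.9 percent in the B6J libraries, 33.0, 34.7 and 33.9 in those of B6J.*Gtpbp1*-/- and 33.2, 33.4 and 32.8 in those of B6J-*Gtpbp2*-/- mice. The mutant shares were below every B6J share.

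The neighbouring C-type gene *Pcdhac1* (ENSMUSG00000103255) had a lower level. *Pcdhac1* RNA was 14.7, 15.6 and 14.1 CPM in the B6J libraries, 11.96, 14.3 and 14.5 in those of B6J.*Gtpbp1*-/- and 10.2, 12.1 and 8.91 in those of B6J-*Gtpbp2*-/- mice. The B6J-*Gtpbp2*-/- libraries were the only group entirely below B6J. Its log2 fold change was -0.51 ± 0.15 in B6J-*Gtpbp2*-/- mice (p 0.00518, adjusted p 0.0552) and -0.13 ± 0.13 in B6J.*Gtpbp1*-/- mice (adjusted p 0.591), and neither was called. Over the 11 alternatives the adjusted p in B6J-*Gtpbp2*-/- mice ranged from 0.0103 to 0.340, and without B6J-*Gtpbp2*-/- library 2 it was 0.0470. The direct comparison of the mutants gave 0.38 ± 0.15 (p 0.0247, adjusted p 1.00).

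Among the alternate alpha genes, which are expressed from single promoters in subsets of neurons, *Pcdha11* (ENSMUSG00000007440) and *Pcdha4* (ENSMUSG00000104252) had the smallest p. *Pcdha11* RNA was 7.86, 5.40 and 9.55 CPM in the B6J libraries, 10.3, 13.6 and 14.9 in those of B6J.*Gtpbp1*-/- and 10.2, 9.84 and 16.7 in those of B6J-*Gtpbp2*-/- mice. Both mutant groups were above B6J, though B6J-*Gtpbp2*-/- library 2 exceeded B6J library 3 by little. *Pcdha11* rose from 7.60 ± 2.08 to 12.9 ± 2.36 CPM in B6J.*Gtpbp1*-/- mice (log2 fold change 0.76 ± 0.21, adjusted p 0.0309) and was 12.2 ± 3.83 CPM in B6J-*Gtpbp2*-/- mice (0.68 ± 0.25, adjusted p 0.132). The call in B6J.*Gtpbp1*-/- mice ended without B6J library 1 (adjusted p 0.0841), B6J library 2 (0.0987), B6J.*Gtpbp1*-/- library 2 (0.111) or B6J.*Gtpbp1*-/- library 3 (0.115). Over the alternatives the adjusted p ranged from 9.32e-05 to 0.0902 and 8 of 11 kept the call. Of the 11, 3 called the gene in B6J-*Gtpbp2*-/- mice, with the replicate number as a block among them (0.0381, range 0.0381 to 0.324). Between the mutants the difference was 0.08 (adjusted p 1.00). The other gene with this symbol, ENSMUSG00000102206, had log2 fold changes of 0.01 ± 0.28 and -0.40 ± 0.31, neither called.

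*Pcdha4* RNA was 6.37, 9.99 and 10.3 CPM in the B6J libraries, 11.7, 13.1 and 14.3 in those of B6J.*Gtpbp1*-/- and 17.9, 12.9 and 15.2 in those of B6J-*Gtpbp2*-/- mice. Both mutant groups lay above B6J, and B6J library 1 was the lowest of the 9. *Pcdha4* rose in B6J-*Gtpbp2*-/- mice, from 8.89 ± 2.19 to 15.3 ± 2.50 CPM, with a log2 fold change of 0.78 ± 0.20 (adjusted p 0.0325). In B6J.*Gtpbp1*-/- mice it was 13.0 ± 1.32 CPM (0.54 ± 0.18, adjusted p 0.0646), and the direct comparison of the mutants gave -0.23 (adjusted p 1.00). The call in B6J-*Gtpbp2*-/- mice ended without B6J library 1 (adjusted p 0.1001), B6J library 2 (0.0784), B6J-*Gtpbp2*-/- library 1 (0.0868) or B6J-*Gtpbp2*-/- library 3 (0.0894). Without B6J library 3 the gene was also called in B6J.*Gtpbp1*-/- mice (adjusted p 0.0304). Over the alternatives the adjusted p in B6J-*Gtpbp2*-/- mice ranged from 0.000555 to 0.0944, with 7 of 11 keeping the call and the replicate block among those that ended it (0.0574), and in B6J.*Gtpbp1*-/- mice from 0.00765 to 0.155. All coding bases of *Pcdha4* are shared with other annotated genes, so its level is uncertain. *Pcdha8* (ENSMUSG00000103800), the lowest alpha gene, had 5.14, 1.94 and 1.03 CPM in the B6J libraries, 1.32, 0.757 and 1.67 in those of B6J.*Gtpbp1*-/- and 1.97, 3.09 and 1.99 in those of B6J-*Gtpbp2*-/- mice. B6J library 1 stood apart, and the groups overlapped. Its log2 fold changes were -1.13 ± 0.56 (adjusted p 0.250) and -0.21 ± 0.52 (adjusted p 0.872), the first called without B6J library 3 (adjusted p 0.0337, range over alternatives 0.0109 to 0.488).

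In the gamma cluster, *Pcdhga1* (ENSMUSG00000103144), the first A-type variable exon, had the smallest p in B6J.*Gtpbp1*-/- mice. *Pcdhga1* RNA was 6.75, 9.93 and 8.74 CPM in the B6J libraries, 17.3, 13.6 and 13.3 in those of B6J.*Gtpbp1*-/- and 11.7, 14.1 and 11.1 in those of B6J-*Gtpbp2*-/- mice. All mutant libraries were above all B6J libraries. *Pcdhga1* rose from 8.47 ± 1.60 to 14.7 ± 2.22 CPM in B6J.*Gtpbp1*-/- mice (log2 fold change 0.79 ± 0.17, adjusted p 0.00630). The call held under all 11 alternatives (adjusted p 1.10e-05 to 0.0376) and without each of the 6 libraries in turn (0.00933 to 0.0405). In B6J-*Gtpbp2*-/- mice it was 12.3 ± 1.62 CPM (0.53 ± 0.18, adjusted p 0.0892). There 2 of 11 alternatives, DESeq2 and no filter, called it (range 0.0289 to 0.112). Between the mutants the difference was 0.26 ± 0.15 (adjusted p 1.00). *Pcdhga6* (ENSMUSG00000103793), an A-type gene too, had a higher level. *Pcdhga6* RNA was 30.0, 29.2 and 33.8 CPM in the B6J libraries, 40.4, 31.8 and 41.5 in those of B6J.*Gtpbp1*-/- and 40.0, 45.3 and 41.2 in those of B6J-*Gtpbp2*-/- mice. All libraries of B6J-*Gtpbp2*-/- mice were above B6J, and B6J.*Gtpbp1*-/- library 2 lay within the B6J range. *Pcdhga6* rose in B6J-*Gtpbp2*-/- mice from 31.0 ± 2.48 to 42.2 ± 2.83 CPM (log2 fold change 0.43 ± 0.10, adjusted p 0.0181). It was 37.9 ± 5.33 CPM in B6J.*Gtpbp1*-/- mice (0.28 ± 0.11, adjusted p 0.129), and the mutants differed by -0.15 (adjusted p 1.00). The call ended without B6J library 1 (adjusted p 0.0819), B6J library 2 (0.0843), B6J-*Gtpbp2*-/- library 2 (0.0856) or B6J-*Gtpbp2*-/- library 3 (0.0518), and 9 of 11 alternatives kept it (0.00140 to 0.0880).

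*Pcdhgc5* (ENSMUSG00000102543) is the last C-type gene of the gamma cluster. *Pcdhgc5* RNA was 16.5, 15.1 and 11.1 CPM in the B6J libraries, 27.4, 17.9 and 14.6 in those of B6J.*Gtpbp1*-/- and 23.8, 20.1 and 20.3 in those of B6J-*Gtpbp2*-/- mice. The B6J-*Gtpbp2*-/- libraries were above B6J, and B6J.*Gtpbp1*-/- library 3 lay within the B6J range. *Pcdhgc5* rose in B6J-*Gtpbp2*-/- mice from 14.2 ± 2.78 to 21.4 ± 2.09 CPM (log2 fold change 0.58 ± 0.15, adjusted p 0.0387). In B6J.*Gtpbp1*-/- mice, with 19.9 ± 6.64 CPM, it was 0.48 ± 0.24 (adjusted p 0.248), and the mutants differed by -0.10 (adjusted p 1.00). Without each single library in turn the call in B6J-*Gtpbp2*-/- mice ended, at an adjusted p of 0.0506 without B6J library 1, 0.0957 without B6J library 2, 0.0684 without B6J library 3, and 0.0964, 0.0688 and 0.0849 without B6J-*Gtpbp2*-/- libraries 1, 2 and 3. The alternatives gave 0.00220 to 0.105, with 7 of 11 keeping the call. *Pcdhgc5* made up 1.80%, 1.71% and 1.27% of the gamma TPM in B6J, against 3.19%, 2.51% and 3.15% in B6J-*Gtpbp2*-/- mice. In B6J.*Gtpbp1*-/- mice it was 2.88%, 2.57% and 1.58%, which overlapped B6J. In B6J-*Gtpbp2*-/- mice a short transcript of 593 bases with few counts held 2.21, 0.583 and 2.52 TPM of its level.

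The other C-type genes were not called. *Pcdhgc3* (ENSMUSG00000102918) RNA was 389, 458 and 321 CPM in the B6J libraries, 373, 305 and 353 in those of B6J.*Gtpbp1*-/- and 359, 341 and 311 in those of B6J-*Gtpbp2*-/- mice. The groups overlapped, with log2 fold changes of -0.19 ± 0.12 (adjusted p 0.378) and -0.21 ± 0.12 (adjusted p 0.329). *Pcdhgc4* (ENSMUSG00000023036) RNA was 50.1, 44.9 and 89.4 CPM in the B6J libraries, 69.7, 47.8 and 31.7 in those of B6J.*Gtpbp1*-/- and 59.9, 52.02 and 37.7 in those of B6J-*Gtpbp2*-/- mice. B6J library 3 stood apart, and the log2 fold changes were -0.31 ± 0.44 (adjusted p 0.745) and -0.31 ± 0.33 (adjusted p 0.677). The shorter of its coding transcripts (2272 bases) was estimated at 0, 0 and 36.1 TPM in B6J, 24.4, 13.3 and 0 TPM for B6J.*Gtpbp1*-/- and 5.73, 14.3 and 0 TPM for the B6J-*Gtpbp2*-/- group, whereas the longer (5024 bases) was between 10.02 and 17.5 TPM in all 9 libraries.

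*Pcdhga8* (ENSMUSG00000103897), another A-type gene, was the last of the 4 gamma genes with the smallest p. *Pcdhga8* RNA was 21.4, 16.1 and 16.3 CPM in the B6J libraries, 22.3, 20.5 and 24.0 in those of B6J.*Gtpbp1*-/- and 22.1, 25.1 and 23.6 in those of B6J-*Gtpbp2*-/- mice. B6J library 1 lay close to the mutants. Its log2 fold changes were 0.31 ± 0.13 (adjusted p 0.152, range over alternatives 0.0907 to 0.268) and 0.39 ± 0.13 (adjusted p 0.102, range 0.0454 to 0.282). Without B6J library 1 both were called (adjusted p 0.0390 and 0.0463). *Pcdhgb8* (ENSMUSG00000103081), a polymorphic pseudogene and the lowest of the gamma cluster, had 5.80, 4.35 and 2.67 CPM in the B6J libraries, 5.31, 6.49 and 5.97 in those of B6J.*Gtpbp1*-/- and 4.55, 4.57 and 4.56 in those of B6J-*Gtpbp2*-/- mice. These groups overlapped B6J, and its log2 fold changes were 0.47 ± 0.25 (adjusted p 0.279) and 0.09 ± 0.26 (adjusted p 0.902).

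**Figure D2:**
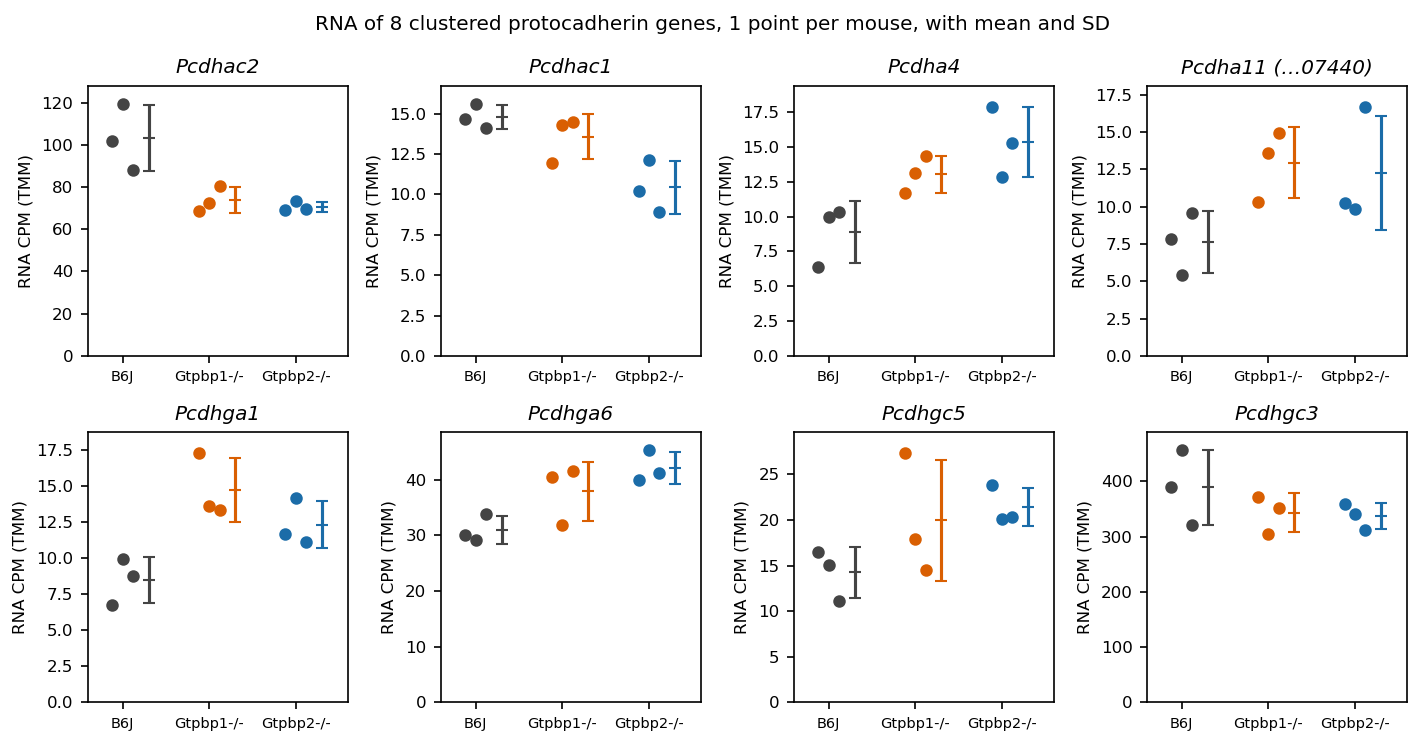
RNA in TMM-normalized CPM for 8 alpha and gamma genes in each mouse (dots), with the mean and SD of each genotype. *Pcdhac2* is lower in both mutants, with means of 103, 73.9 and 70.6 CPM, and *Pcdhga1* higher, with means of 8.47, 14.7 and 12.3 CPM in B6J, B6J.*Gtpbp1*-/- and B6J-*Gtpbp2*-/- mice.

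The beta genes are single-exon isoforms without a constant cytoplasmic part, and the *Pcdhb22* (ENSMUSG00000073591) p was the smallest among them. *Pcdhb22* RNA was 22.3, 25.2 and 23.2 CPM in the B6J libraries, 19.1, 19.6 and 19.9 in those of B6J.*Gtpbp1*-/- and 22.7, 23.5 and 21.2 in those of B6J-*Gtpbp2*-/- mice. The B6J.*Gtpbp1*-/- libraries were below the others, with a log2 fold change of -0.28 ± 0.10 (p 0.0157, adjusted p 0.0877), against -0.08 ± 0.10 (adjusted p 0.743) in B6J-*Gtpbp2*-/- mice and a difference between the mutants of -0.20 ± 0.10 (adjusted p 1.00). *Pcdhb13* (ENSMUSG00000047307) RNA was 6.09, 5.60 and 4.85 CPM in the B6J libraries, 7.38, 4.66 and 6.81 in those of B6J.*Gtpbp1*-/- and 7.72, 6.83 and 6.41 in those of B6J-*Gtpbp2*-/- mice. *Pcdhb15* (ENSMUSG00000047033) RNA was 6.43, 6.31 and 5.47 CPM in the B6J libraries, 5.44, 3.59 and 6.49 in those of B6J.*Gtpbp1*-/- and 4.83, 4.39 and 5.23 in those of B6J-*Gtpbp2*-/- mice. *Pcdhb13* was above B6J in B6J-*Gtpbp2*-/- mice (0.33 ± 0.18, adjusted p 0.311) and *Pcdhb15* below (-0.34 ± 0.18, adjusted p 0.307), with overlap in B6J.*Gtpbp1*-/- mice (0.18, adjusted p 0.661, and -0.24, adjusted p 0.572). *Pcdhb14* (ENSMUSG00000044043) RNA was 18.8, 22.2 and 17.1 CPM in the B6J libraries, 17.1, 14.8 and 20.4 in those of B6J.*Gtpbp1*-/- and 15.9, 18.4 and 15.7 in those of B6J-*Gtpbp2*-/- mice. *Pcdhb20* (ENSMUSG00000046191) RNA was 16.9, 18.9 and 18.1 CPM in the B6J libraries, 17.3, 16.9 and 17.4 in those of B6J.*Gtpbp1*-/- and 18.1, 19.4 and 15.7 in those of B6J-*Gtpbp2*-/- mice. Both overlapped between genotypes, with log2 fold changes of -0.16 and -0.23 for *Pcdhb14* and -0.07 and -0.03 for *Pcdhb20*. *Pcdhb1* (ENSMUSG00000051663) had 6, 4 and 9 counts in B6J, 13, 2 and 6 for B6J.*Gtpbp1*-/- and 21, 4 and 3 for the B6J-*Gtpbp2*-/- group, too few to show a difference (log2 fold changes 0.27 ± 1.02 and 0.54 ± 1.03).

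Counted over all members, 3 of 58 were called in B6J.*Gtpbp1*-/- mice, 2 higher and 1 lower, beside 13.8% of the 24577 genes tested, 5.9% higher and 7.93% lower. They were *Pcdhga1*, *Pcdha11* and *Pcdhac2*. In B6J-*Gtpbp2*-/- mice 4 of 58 were called, 3 higher (*Pcdhga6*, *Pcdha4* and *Pcdhgc5*) and 1 lower (*Pcdhac2*), beside 8.63% of 24859 genes, 3.61% higher and 5.02% lower. In total the shares of members called were below these backgrounds, at 5.17% and 6.90%. This depended on the setting, since without a filter they were 12.1% beside 11.9% and 13.8% beside 7.92%, and by DESeq2 6.90% beside 17.4% and 13.8% beside 13.7%. By cluster, the calls were 2 of 14 alpha genes in each mutant, 0 of 22 beta genes, and 1 and 2 of 22 gamma genes. For the beta genes edgeR gave 1 and 0 at an unadjusted p under 0.05, and DESeq2 called 0 and 0. Over all 58, 8 had an unadjusted p under 0.05 in B6J.*Gtpbp1*-/- (26.3% of all genes) and 8 in B6J-*Gtpbp2*-/- mice (22.5%), and DESeq2 called 4 (17.4%) and 8 (13.7%). Which share of calls was higher over all genes depended on scaling, with 42.6% and 41.8% by TMM, 54.9% and 53.3% by upper-quartile normalization and 75.2% and 77.2% by limma on TPM.

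On the CPM scale 3 members lay above B6J in all libraries of B6J.*Gtpbp1*-/- mice (*Pcdhga1*, *Pcdha11* and *Pcdha4*), beside 16.4% of all genes, and 2 below (*Pcdhac2* and *Pcdhb22*), beside 15.5%. In B6J-*Gtpbp2*-/- mice 7 lay above (*Pcdhga6*, *Pcdha4*, *Pcdhgc5*, *Pcdhga1*, *Pcdhga8*, *Pcdha11* and *Pcdhb13*), beside 14.9%, and 4 below (*Pcdhac2*, *Pcdhac1*, *Pcdha1* and *Pcdhb15*), beside 13.6%. *Pcdha1* was named after its values were seen. On the TPM scale, where the median of all genes is shifted upward, 9 lay above and 1 below for B6J.*Gtpbp1*-/- (beside 25.4% and 6.79%) and 14 above and 2 below for the B6J-*Gtpbp2*-/- group (beside 23.5% and 5.96%). The median log2 fold change of the 58 was 0.04 for B6J.*Gtpbp1*-/- and 0.09 for the B6J-*Gtpbp2*-/- group, beside 0.03 and 0.03 over all genes tested. It was -0.05 and -0.05 for alpha, 0.06 and 0.08 for beta, 0.11 and 0.14 for gamma and -0.19 and -0.31 for C-type genes. Both comparisons use the same B6J libraries, so their values are not independent of each other.

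Compared directly, B6J.*Gtpbp1*-/- and B6J-*Gtpbp2*-/- mice differed in 0 of 58 members by edgeR, beside 0.0595% of 25190 genes (0.0159% higher and 0.0437% lower). At an unadjusted p under 0.05 there were 4 (*Pcdha8*, *Pcdhga4*, *Pcdhac1* and *Pcdhgb8*, of which *Pcdhga4* was named after its values were seen), beside 3.57%, and DESeq2 called 0, beside 0.183%. The median difference was 0.01, beside -0.00 over all genes, and in CPM 2 members were above and 2 below without overlap, beside 4.54% and 4.38%.

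**Figure D3:**
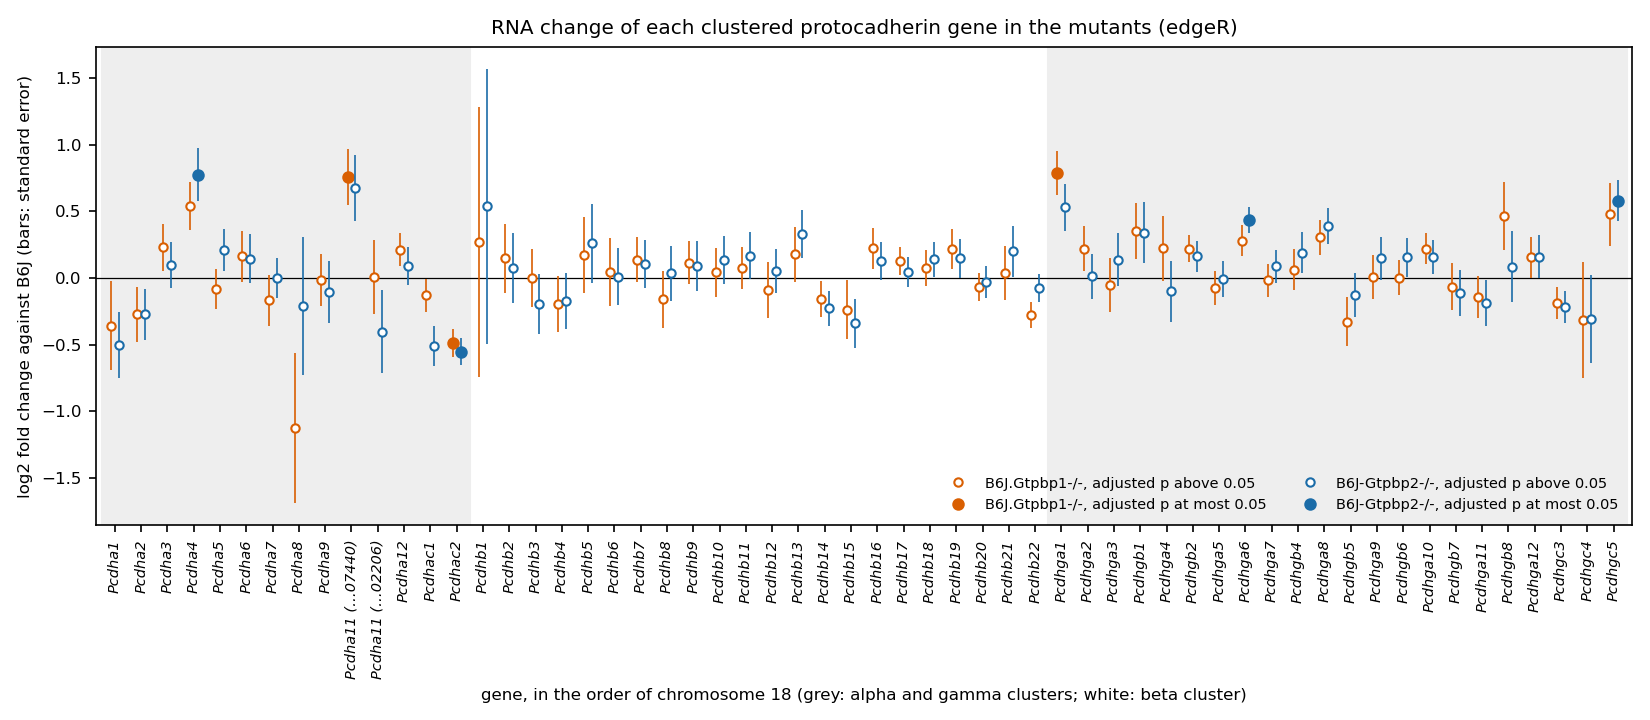
RNA log2 fold change against B6J (with SE) of each clustered protocadherin gene in genome order, for both mutants, with filled symbols for an adjusted p of at most 0.05. The called genes are *Pcdhga1*, *Pcdha11* and *Pcdhac2* in B6J.*Gtpbp1*-/- mice and *Pcdhac2*, *Pcdhga6*, *Pcdha4* and *Pcdhgc5* in B6J-*Gtpbp2*-/- mice.

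Position within a cluster was described by the median log2 fold change of the first and last genes along the chromosome. In the A-type gamma genes it was 0.22 for the first 6 and 0.08 for the last 6 in B6J.*Gtpbp1*-/- mice, against 0.08 and 0.15 for the B6J-*Gtpbp2*-/- group. For the 12 alternate alpha genes it was 0.04 and -0.00 for B6J.*Gtpbp1*-/- and 0.12 and -0.05 for the B6J-*Gtpbp2*-/- group. The first and last 11 beta genes had 0.08 and 0.04 for B6J.*Gtpbp1*-/- and 0.09 and 0.05 for the B6J-*Gtpbp2*-/- group. For the first and last 3 B-type gamma genes it was 0.22 and 0.0037 for B6J.*Gtpbp1*-/- and 0.19 and 0.09 for the B6J-*Gtpbp2*-/- group. Most of the RNA assigned to members was from protein-coding transcripts (98.7% in B6J, 97.9% and 98.1% in the mutants). The 10 retained-intron transcripts of members summed to 3.51, 3.35 and 2.97 TPM in the B6J libraries, 5.57, 7.26 and 8.03 in those of B6J.*Gtpbp1*-/- and 6.50, 5.48 and 7.04 in those of B6J-*Gtpbp2*-/- mice. Each mutant library was above each B6J library, and the sum was 0.697% of member TPM in B6J, 1.36% for B6J.*Gtpbp1*-/- and 1.25% for the B6J-*Gtpbp2*-/- group. On the same scale 25.4% and 23.5% of all genes lay above B6J. Whether the rise is particular to the members was not tested.

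Footprints are counted over coding sequence and include the shared constant exons only as far as the counting assigned them, so they were read after RNA. In B6J the median footprint count was 36.5 for alpha, 77.0 for beta and 165 for gamma genes, beside 77.0 over all genes tested. *Pcdha4* had 0 footprints in all 9 libraries, as did *Gm42416*, which holds the same coding bases. Footprints on bases shared between genes may thus not have been counted. Over all members the footprints summed to 1631, 1689 and 1822 CPM in the B6J libraries, 1861, 1948 and 1952 in those of B6J.*Gtpbp1*-/- and 1826, 1965 and 1670.5 in those of B6J-*Gtpbp2*-/- mice. The B6J.*Gtpbp1*-/- libraries were above B6J, and the B6J-*Gtpbp2*-/- libraries overlapped. Footprints of marker genes differed as well. Those of the 6 markers of meninges, bone and muscle summed to 376, 839 and 998 CPM in the B6J libraries, 1834, 1501 and 2929 in those of B6J.*Gtpbp1*-/- and 741, 1153 and 596 in those of B6J-*Gtpbp2*-/- mice. Endothelial markers had 263, 175 and 295 CPM in the B6J libraries, 624, 446 and 383 in those of B6J.*Gtpbp1*-/- and 523, 429 and 457 in those of B6J-*Gtpbp2*-/- mice. For microglia markers it was 141, 167 and 142 CPM in the B6J libraries, 347, 204 and 406 in those of B6J.*Gtpbp1*-/- and 202, 206 and 269 in those of B6J-*Gtpbp2*-/- mice. The first sum was above B6J in B6J.*Gtpbp1*-/- mice alone, and the other sums, with those of forebrain markers (by little in B6J-*Gtpbp2*-/- mice), were above B6J in both mutants. Granule cell markers were below in both, with 4815, 7000.0 and 5399 CPM in the B6J libraries, 4029, 3061 and 4714 in those of B6J.*Gtpbp1*-/- and 3044, 2866 and 2641 in those of B6J-*Gtpbp2*-/- mice. The footprint sums of the other marker lists overlapped B6J, and the part of these differences in the footprints of the members was not tested.

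By edgeR 0 of 56 members were called in B6J.*Gtpbp1*-/- mice, beside 0.745% of 13956 genes (0.573% higher and 0.172% lower), with 3 at an unadjusted p under 0.05 (12.6% of all) and 0 by DESeq2 (2.91%). Likewise 0 of 56 were called in B6J-*Gtpbp2*-/- mice, beside 2.94% of 13797 genes (1.28% higher and 1.67% lower), with 3 at an unadjusted p under 0.05 (17.1%) and 0 by DESeq2 (4.75%). Between the mutants 0 of 57 were called, beside 0% of 14142 genes, with 2 unadjusted (10.8%) and 0 by DESeq2 (0.707%).

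The median footprint log2 fold change of the members was 0.20 for B6J.*Gtpbp1*-/- and 0.10 for the B6J-*Gtpbp2*-/- group, beside 0.01 and 0.01 over all genes. Of the 56, 47 and 32 were positive, beside 7197 of 13956 and 6988 of 13797 genes. Without overlap, 7 were above and 2 below B6J in B6J.*Gtpbp1*-/- mice (beside 8.89% and 9.11%) and 5 above and 2 below in B6J-*Gtpbp2*-/- mice (beside 10.3% and 12.2%). Between the mutants 4 were above and 1 below (beside 8.85% and 7.25%), with a median of 0.06. *Pcdhac2* footprints were 97.5, 74.2 and 92.8 CPM in the B6J libraries, 71.1, 92.9 and 90.4 in those of B6J.*Gtpbp1*-/- and 79.4, 88.3 and 74.1 in those of B6J-*Gtpbp2*-/- mice. They overlapped between genotypes, with log2 fold changes of -0.05 ± 0.19 (adjusted p 0.948) and -0.13 ± 0.17 (adjusted p 0.748). *Pcdhga1* footprints were 18.4, 15.8 and 23.1 CPM in the B6J libraries, 26.4, 37.0 and 21.4 in those of B6J.*Gtpbp1*-/- and 23.3, 27.8 and 29.4 in those of B6J-*Gtpbp2*-/- mice. Those of B6J-*Gtpbp2*-/- mice were above B6J, with log2 fold changes of 0.57 ± 0.26 (adjusted p 0.391) for B6J.*Gtpbp1*-/- and 0.48 ± 0.23 (adjusted p 0.288) for the B6J-*Gtpbp2*-/- group. *Pcdhgc5* footprints were 35.5, 36.0 and 59.8 CPM in the B6J libraries, 59.5, 72.7 and 57.8 in those of B6J.*Gtpbp1*-/- and 44.9, 58.6 and 42.4 in those of B6J-*Gtpbp2*-/- mice. They overlapped, with log2 fold changes of 0.54 ± 0.23 (adjusted p 0.360) and 0.14 ± 0.22 (adjusted p 0.805).

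Translational efficiency, the change in footprints relative to the change in RNA, was tested as the interaction of assay and genotype. By edgeR 0 of 56 members were called in B6J.*Gtpbp1*-/- mice, beside 0% of 13106 genes, with 1 at an unadjusted p under 0.05 (8.94%) and 0 by DESeq2 (0.443%). For B6J-*Gtpbp2*-/- mice 0 of 55 were called, beside 0.00772% of 12952 genes, with 2 unadjusted (12% of all) and 0 by DESeq2 (1.25%). The median log2 change was 0.15 and -0.04, beside 0.03 and -0.02 over all genes. Leaving out 1 library gave medians from 0.083 to 0.217 and from -0.066 to 0.053, so the direction of the second depended on single libraries. *Pcdhac2* had 0.44 ± 0.21 (adjusted p 0.572) and 0.38 ± 0.18 (adjusted p 0.422). The smallest p were those of *Pcdhgb8* in B6J.*Gtpbp1*-/- mice (-1.80 ± 0.55, p 0.00534, adjusted p 0.478), with 13, 35 and 26 footprints in B6J against 17, 11 and 13, and of *Pcdhga6* in B6J-*Gtpbp2*-/- mice (-0.63 ± 0.18, p 0.00283, adjusted p 0.231). RNA and footprint libraries were separate batches, which this test cannot tell apart from assay. RNA was estimated over whole transcripts with the constant exons, so the assays may cover different bases of the alpha and gamma genes.

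Genes of related function were described from 4 lists. Beside their RNA counts stand the shares over all genes tested, 5.9% higher and 7.93% lower in B6J.*Gtpbp1*-/- mice and 3.61% and 5.02% in the B6J-*Gtpbp2*-/- group, and by DESeq2 17.4% and 13.7% in either direction. At an unadjusted p under 0.05 the shares were 26.3% and 22.5%. Of 20 factors of promoter choice and chromatin, such as CTCF, cohesin and the methylation regulator SMCHD1, 5 were higher and none lower in B6J.*Gtpbp1*-/- mice, where 10 had an unadjusted p under 0.05 and DESeq2 called 7. Of the same list edgeR called 0 in the B6J-*Gtpbp2*-/- group, with 3 at an unadjusted p under 0.05, and DESeq2 called 0. The cohesin regulators *Pds5a* (log2 fold change 0.34, adjusted p 0.00887) and *Pds5b* (0.30, adjusted p 0.0176) and the gene *Smchd1* (0.31, adjusted p 0.0249) had the smallest p. In B6J-*Gtpbp2*-/- mice they had 0.17 (adjusted p 0.237), 0.15 (0.266) and 0.12 (0.536). The list medians were 0.17 and 0.11. Of 21 partners and signalling genes, 3 were lower for B6J.*Gtpbp1*-/- and 2 for the B6J-*Gtpbp2*-/- group, with the receptor kinase gene *Ret* at -0.51 (adjusted p 0.0114) and -0.65 (0.00441), the gamma-secretase gene *Psen2* at -0.48 (0.0110) and -0.41 (0.0451), and the WAVE complex gene *Brk1* at -0.32 (0.0175) and -0.27 (0.0540). Their medians were 0.03 and 0.04, 10 and 4 had an unadjusted p under 0.05, and DESeq2 called 4 in each mutant.

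Of 12 non-clustered protocadherin genes, 1 was higher for B6J.*Gtpbp1*-/- and 2 for the B6J-*Gtpbp2*-/- group. *Pcdh11x* had log2 fold changes of 0.83 (adjusted p 0.0127) and 1.27 (0.0141), *Pcdh18* 0.51 (0.113) and 0.88 (0.0490), and *Pcdh19* 0.36 (0.178) and 0.71 (0.0512). The medians were 0.33 and 0.63. At an unadjusted p under 0.05 there were 6 and 8, and DESeq2 called 1 and 8, so the count in the second mutant depended on the tool. Of 19 classical cadherin genes, 2 were higher and 5 lower in each mutant, with *Cdh22* at -0.92 (4.6e-05) and -0.73 (0.0118), *Cdh15* at -0.82 (5.5e-05) and -0.93 (0.000830) and *Cdh8* at -0.62 (0.000417) and -0.36 (0.0440). The medians were -0.09 and -0.05, 10 and 12 had an unadjusted p under 0.05, and DESeq2 called 9 and 11. In the direct comparison of the mutants edgeR called 0 genes of each of the 4 lists, with 0, 0, 0 and 2 at an unadjusted p under 0.05 in the order given, and DESeq2 called 0. In footprints edgeR called 0 genes of each list in B6J.*Gtpbp1*-/- mice, with 1, 3, 1 and 5 at an unadjusted p under 0.05 and 0, 0, 0 and 1 by DESeq2 (over all genes 0.745%, 12.6% and 2.91%). For the B6J-*Gtpbp2*-/- group it called 3 classical cadherin genes, 1 higher and 2 lower, and 0 of the other lists, with 1, 5, 1 and 9 unadjusted and 1, 0, 0 and 4 by DESeq2 (over all genes 1.28% higher, 1.67% lower, 17.1% unadjusted and 4.75% by DESeq2).

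The medians of the 4 lists, in the same order, were not the same in footprints as in RNA. Footprint medians were -0.18, 0.0015, 0.17 and 0.12 for B6J.*Gtpbp1*-/- and 0.048, -0.12, 0.0038 and -0.19 for the B6J-*Gtpbp2*-/- group, beside 0.01 and 0.01 over all genes. Thus the median of the chromatin factors was positive in RNA and negative in footprints for B6J.*Gtpbp1*-/-, and that of the non-clustered protocadherins was 0.63 in RNA and near 0 in footprints for the B6J-*Gtpbp2*-/- group. In translational efficiency edgeR called 0 genes of each list in both mutants. For B6J.*Gtpbp1*-/- the medians were -0.18, 0.045, -0.054 and 0.085, with 5 of 19, 1 of 21, 0 of 12 and 3 of 19 at an unadjusted p under 0.05 (8.94% of all genes) and 0 by DESeq2. For the B6J-*Gtpbp2*-/- group they were -0.076, -0.068, -0.59 and -0.17, with 2 of 19, 4 of 21, 6 of 12 and 3 of 19 unadjusted (12% of all) and 0, 0, 1 and 1 by DESeq2.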

How the data were processed

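RNA sequencing and ribosome profiling libraries of 3 mice for each genotype were used. Per transcript, the authors deposited estimated counts and also TPM (kallisto 0.42.4, Gencode M20), and for footprints they deposited a count for each gene over coding sequence (Bowtie2 2.2.3, HISAT2 2.1.0, featureCounts). Estimated counts were summed for each gene and rounded. Pairs of genotypes were compared by edgeR 4.0.16 (R 4.3.3) with TMM, a robust quasi-likelihood fit and Benjamini-Hochberg adjustment over all genes that had 5 or more counts in 3 or more of 6 libraries. Translational efficiency was the interaction of assay and genotype, for genes with 10 or more counts in 3 or more of 6 libraries of each assay. The edgeR test gives no SE. The SE printed is the size of the log2 fold change divided by the square root of the test's F statistic. Fits were tested on simulated data whose spread between libraries was set by a formula. DESeq2 made more false calls there than its threshold allows, so its counts may be too high. The translational efficiency fits first failed the limit set for recovered changes, with the loss in the smallest changes. The limits were changed after that run, and the fits were not. Small changes in translational efficiency may thus be missed. Alternatives were DESeq2 1.42.0, limma 3.58.1 on log2(TPM + 0.5), other normalizations and filters, a length offset, a single model of 9 libraries, a replicate block, leaving out each library, transcripts annotated as protein-coding alone and sex as a term. Positions are from Gencode M21. Tables and figures were made with Python 3.11.15, pandas 2.3.3 and matplotlib 3.10.9.

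Genes named were the 5 C-type genes, in each cluster the 4 with the smallest RNA p in either mutant and the highest and lowest in B6J, and from each list (chromatin factors, partners and signalling, non-clustered protocadherins, classical cadherins) the 3 with the smallest p. Outside this rule, *Pcdhga11*, *Pcdhga7* and *Pcdhb17* were named for their level in B6J alone. The members and lists were chosen with earlier results of these data known.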

Additional observations from a re-analysis of the deposited data

How the results depend on the processing

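Footprint and translational efficiency counts were 0 members called under every setting run, each library left out included, and the direct RNA comparison of the mutants was 0 as well. The RNA counts changed more. Against 3 members called in B6J.*Gtpbp1*-/- mice, limma on log2(TPM + 0.5) gave 1 and no filter 7. Against 4 in B6J-*Gtpbp2*-/- mice, DESeq2 gave 8, no filter 8, sex as a term 1 and limma on log2(TPM + 0.5) 0. With 1 library left out the counts were 2 to 5 in B6J.*Gtpbp1*-/- mice (5 without B6J library 3) and 1 to 3 in B6J-*Gtpbp2*-/- mice (1 without B6J library 2 and 1 without B6J-*Gtpbp2*-/- library 3). The shares over all genes moved with single libraries as well. Called genes numbered 1890 to 3798 (3398 with all libraries) and 953 to 2357 (2146) in RNA, 22 to 186 (104) and 106 to 619 (406) in footprints, and 0 to 174 (0) and 0 to 159 (1) in translational efficiency, where both highest counts were without B6J footprint library 3. The median log2 fold change was 0.20 and 0.22 by limma on TPM, of which 0.13 and 0.12 was the shift of all genes, and the median between the mutants was 0.11 with sex as a term. Leaving out 1 library gave RNA medians from -0.01 to 0.11 in B6J.*Gtpbp1*-/- mice, 0.04 to 0.10 in B6J-*Gtpbp2*-/- mice and -0.06 to 0.05 between the mutants. In footprints, in the same order, it gave 0.17 to 0.27, 0.060 to 0.18 and 0.022 to 0.12. Sex, read from *Ddx3y*, was unequal between genotypes, with all 3 B6J-*Gtpbp2*-/- RNA libraries low. Among the B6J RNA libraries, library 2 alone was high. Against B6J-*Gtpbp2*-/- mice the sex term thus acted much like leaving that library out, and *Pcdhac2* alone stayed called. Between the mutants the term left B6J.*Gtpbp1*-/- library 3 alone to be set against the B6J-*Gtpbp2*-/- libraries.

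With the replicate number as a block, 3, 4 and 0 members were called in RNA, and over all genes 2237, 2130 and 15. In B6J-*Gtpbp2*-/- mice the 4 were not the same genes, since *Pcdha4* no longer passed (adjusted p 0.0574) and *Pcdha11* did (0.0381). Deviations of same-numbered RNA libraries of different genotypes correlated across genes at -0.05 to 0.10, with a median of -0.01, so the number carried no visible pairing.

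Several directions of genes that were not called reversed. In B6J.*Gtpbp1*-/- mice this was so by limma on TPM for *Pcdhac1* (0.018), *Pcdhb20* (0.077) and *Pcdhgc4* (0.000597). In B6J-*Gtpbp2*-/- mice it was so for *Pcdha8* by limma (0.071) and with the block (0.073), for *Pcdhb22* by limma (0.054), and for *Pcdhb20* by upper-quartile normalization (0.013), limma (0.11) and with sex as a term (0.00295). Leaving out 1 library gave -0.60 to 0.66 for *Pcdha8*, -0.10 to 0.053 for *Pcdhb20*, -0.16 to 0.37 for *Pcdhgb8* and -0.50 to 0.068 for *Pcdhgc4* in B6J-*Gtpbp2*-/- mice, and -0.45 to 0.74 for *Pcdhb1* and -0.63 to 0.059 for *Pcdhgc4* in B6J.*Gtpbp1*-/- mice. The cause was not tested. Of the log2 fold changes of named members under the other settings, 352 kept their direction and side of the threshold, 16 passed it newly and 15 no longer did. Cluster TPM summed from protein-coding transcripts alone differed by less than the spread between mice, but the gamma B sums then overlapped B6J.

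With 3 mice in a group, few counts for genes such as *Pcdhb1*, and footprints and RNA fragments of the constant exons shared between genes, small changes of single isoforms were not detectable. The RNA library kit (TruSeq v2 mRNA) does not keep the strand, so antisense transcripts are not told apart by strand from members they overlap. Intervals cover differences between mice of these batches alone.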

Other observations

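Other genes within the clusters' span were not part of the members. *Taf7*, a general transcription factor gene between the beta and gamma clusters, had 15.1, 15.0 and 14.7 TPM in B6J, 16.8, 20.5 and 24.8 TPM in B6J.*Gtpbp1*-/- and 14.8, 22.9 and 21.1 TPM in B6J-*Gtpbp2*-/- mice, with log2 fold changes of 0.32 (adjusted p 0.129) and 0.24 (adjusted p 0.390). *Gm38182*, a processed transcript over the end of the gamma cluster, had 5.47, 7.74 and 2.82 TPM in B6J, 13.2, 11.8 and 6.07 TPM in B6J.*Gtpbp1*-/- and 10.44, 8.07 and 5.74 TPM in B6J-*Gtpbp2*-/- mice, with 0.73 (adjusted p 0.230) and 0.45 (adjusted p 0.516). The antisense gene *Gm37751* lies on the minus strand over the start of the alpha cluster and had 0, 3 and 1 counts in B6J, 10, 7 and 7 in B6J.*Gtpbp1*-/- and 13, 17 and 19 in B6J-*Gtpbp2*-/- mice (adjusted p 0.212 and 0.0804). A further antisense gene within the alpha cluster, *Gm10545*, had 24, 73 and 43 counts in B6J. It had 115, 87 and 62 in B6J.*Gtpbp1*-/- and 90, 86 and 99 in B6J-*Gtpbp2*-/- mice. In CPM every mutant library was above B6J, with log2 fold changes of 0.99 and 0.88 (edgeR, adjusted p 0.135 and 0.213). Both antisense genes were named after their values were seen. Readthrough genes *Gm37013* and *Gm37388* were listed at a mean of 0 TPM in every genotype.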
